A study of Mus musculus with 10 samples.

Results

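The Hoxd cluster of mouse chromosome 2 was examined for CpG methylation in 10 leukemia samples that differed in their oncogene and in whether they carried a Dnmt3b knockin. All listed CpG positions of an interval that runs from upstream of Hoxd13 to downstream of the Hoxd1 start (mm9) were taken. The interval covers the 9 Hoxd genes: Hoxd13, Hoxd12, Hoxd11, Hoxd10, Hoxd9, Hoxd8, Hoxd3, Hoxd4 and Hoxd1. This list follows annotated starts along the plus strand, not gene bodies, and the Hoxd3 start used here comes before that of Hoxd4. The deposited files list 3144 positions in this interval in at least 1 library, of 8185408 listed positions in all. A comparison used the positions with at least 5 reads in each of its libraries, which left 594 positions for the 6 MLL-AF9 libraries, 895 for the 4 cMyc-Bcl2 libraries and 465 for all 10.

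The 4 groups were MLL-AF9 Dnmt3b knockin (3 libraries), MLL-AF9 wild type (WT, 3 libraries), cMyc-Bcl2 Dnmt3b knockin (2 libraries) and cMyc-Bcl2 WT (2 libraries). MLL-AF9 is a fusion of the methyltransferase MLL (Kmt2a) with AF9 that drives myeloid leukemia, and cMyc-Bcl2 joins a proliferation oncogene with an inhibitor of cell death. The knockin belongs to a tetracycline-inducible mouse model with high Dnmt3b expression, and the study asked how Dnmt3b-mediated methylation bears on leukemia development. MLL-AF9 libraries came from c-kit-positive leukemic cells of the spleen, whereas no sort is named for the cMyc-Bcl2 leukemic spleen cells, so that oncogene and sort cannot be told apart. The labels carry no replicate numbers, and those used here were given in the order of the samples. The labels do not say whether replicates came from separate animals. The spread behind each p-value is that between libraries, which may be technical. Neither the Dnmt3b transcript nor any cell type marker could be read from methylation files, and the knockin and the cell type were therefore taken from the labels.

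Hox genes encode homeodomain transcription factors that give cells a position along the body axis, and their order along the chromosome follows the order in which they are used. In blood, Hox genes are known for roles in stem and progenitor cells, and MLL fusions act on genes of this family. Hox clusters are dense in CpGs that Polycomb proteins usually keep silent with little DNA methylation. Dnmt3b is a de novo DNA methyltransferase, which adds methyl groups to CpGs that had none. Reduced representation bisulfite sequencing (RRBS) cuts DNA at CCGG with the enzyme MspI and reads the CpGs close to those cuts, so that it samples CpG-rich stretches and leaves much of the rest unread. In a bulk sample a level is the share of reads with methylation, which does not separate more methylated cells from more methylation in each cell.

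The upstream sequences below are those on which the results turn, 250 bases before each annotated transcription start from RefSeq (assembly GRCm38.p6, chromosome 2), written 5′ to 3′ on the strand of the gene with each CpG in capitals. Hoxd1 and Hoxd12 (plus strand) are the genes whose surroundings passed the test of the knockin over both models, and Hoxd9 (plus strand) had a low WT level and a large cMyc-Bcl2 difference. The antisense gene Gm38462 (minus strand), whose span includes Hoxd8, has a pair of annotated starts. The one shown, between the Hoxd9 and Hoxd3 starts, lies in the CpG-densest stretch shown, and that stretch was low in every library. The other lies beside the Hoxd3 start and is described with it.
Hoxd1: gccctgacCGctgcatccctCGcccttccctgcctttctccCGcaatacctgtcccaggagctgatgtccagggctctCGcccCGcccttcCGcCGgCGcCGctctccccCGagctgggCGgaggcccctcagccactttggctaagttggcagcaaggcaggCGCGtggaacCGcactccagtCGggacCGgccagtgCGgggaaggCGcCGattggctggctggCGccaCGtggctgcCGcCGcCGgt
Hoxd12: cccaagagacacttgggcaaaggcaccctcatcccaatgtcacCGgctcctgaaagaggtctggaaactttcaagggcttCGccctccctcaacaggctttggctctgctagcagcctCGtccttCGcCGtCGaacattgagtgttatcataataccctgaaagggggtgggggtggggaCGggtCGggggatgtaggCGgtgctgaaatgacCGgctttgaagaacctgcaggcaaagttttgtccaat
Hoxd9: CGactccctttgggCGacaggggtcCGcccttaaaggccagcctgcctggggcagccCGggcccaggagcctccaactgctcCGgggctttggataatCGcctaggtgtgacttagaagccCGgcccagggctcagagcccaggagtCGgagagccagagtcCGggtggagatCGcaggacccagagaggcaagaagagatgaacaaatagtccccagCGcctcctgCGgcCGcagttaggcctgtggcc
Gm38462: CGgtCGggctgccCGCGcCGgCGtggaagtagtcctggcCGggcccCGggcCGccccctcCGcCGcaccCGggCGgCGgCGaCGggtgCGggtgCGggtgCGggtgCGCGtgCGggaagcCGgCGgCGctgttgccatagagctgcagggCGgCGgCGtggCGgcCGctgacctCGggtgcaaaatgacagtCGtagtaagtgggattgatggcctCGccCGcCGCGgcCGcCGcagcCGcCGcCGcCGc
These 250 bases hold 24 CpGs at Hoxd1, 10 at Hoxd12, 13 at Hoxd9 and 42 at Gm38462, and the MspI site CCGG occurs 3 times at Hoxd1, 2 times at Hoxd12, 4 times at Hoxd9 and 5 times at Gm38462. The motif CCGG reads the same on both strands. Counted over 300 bases (250 before and 50 after the start), Hoxd1 holds 29 CpGs, Hoxd12 13, Hoxd9 20 and Gm38462 49, against a median of 7 over all RefSeq promoters of the table, of which 26.5% hold 20 or more. CCGG is present in 52.8% of all these promoters.

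Over the Hoxd interval the knockin libraries were more methylated than the WT libraries of the same oncogene, and the gap was wider in cMyc-Bcl2 leukemia. The mean over the 895 positions, each position weighted once, was 29.4% and 32.8% in the 2 cMyc-Bcl2 knockin libraries, against 14.5% and 12.5% in the 2 cMyc-Bcl2 WT libraries. The groups did not overlap, and the means of 31.1% ± 2.40 in knockin and 13.5% ± 1.47 in WT (SD, n = 2 each) differed by 17.6 percentage points. In MLL-AF9 leukemia the mean over 594 positions was 26.3%, 20.7% and 18.9% in the 3 knockin libraries, against 15.1%, 18.3% and 12% in the 3 WT libraries. These groups did not overlap either, although the lowest knockin library lay only just above the highest WT library, and the means of 22.0% ± 3.84 in knockin and 15.2% ± 3.17 in WT (SD, n = 3 each) differed by 6.81 points. Over the 465 positions of all 10 libraries the MLL-AF9 difference was 6.85 points, and there the groups overlapped, since the lowest knockin library had 20.04% and the highest WT library had 20.4%. Over all autosomal positions the same difference was 3.11 points in cMyc-Bcl2 (31.9% ± 0.875 in knockin and 28.7% ± 0.368 in WT, 1040374 positions) and 2.32 points in MLL-AF9 (25.6% ± 0.797 in knockin and 23.3% ± 0.570 in WT, 654927 positions). No test was made of these interval means.

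MLL-AF9 knockin replicate 1, the library with the highest mean of that group, stands apart from the other MLL-AF9 libraries in its sex chromosomes. Its chromosome X depth relative to the autosomes was 0.631, against 0.914 to 1.27 in the other 9 libraries. It had 1764 chromosome Y calls, against 24 to 125 in the other MLL-AF9 libraries. Its chromosome 2 depth was in the range of 0.933 to 1.08 seen over all libraries. Without it the MLL-AF9 interval difference was 4.53 points. In cMyc-Bcl2, WT replicate 2 had 1493 chromosome Y calls, against 165 to 233 in the other libraries of that model, and an X depth of 0.914. Sex was not taken into account in either model. Total read calls ran over 14446933 to 46762220 per library, of which the Hoxd interval took 10607 to 39552. The median width of the 95% exact binomial interval of a window level in a single library was 8.73 points, which covers counting error only.

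**Figure D1:**
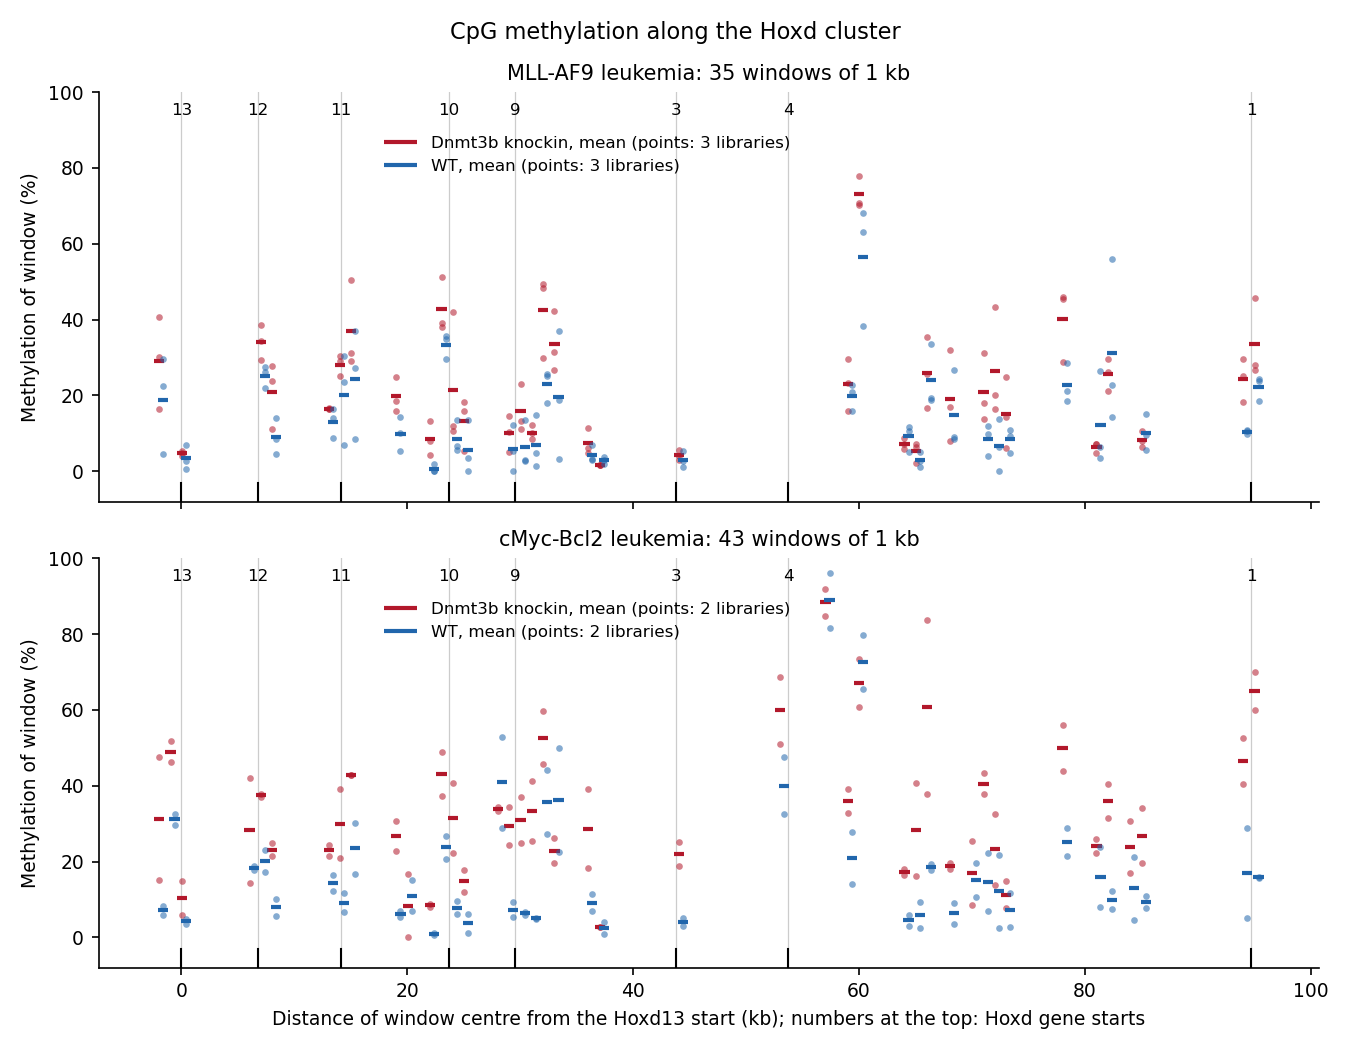
Methylation level in percent by 1-kb window along the Hoxd interval, against distance from the Hoxd13 start in kb, with a point for each library and a short bar for each group's mean (knockin red, WT blue). MLL-AF9 is in the upper panel and cMyc-Bcl2 in the lower, and grey lines mark the placed Hoxd starts. In cMyc-Bcl2 the knockin libraries lie above WT in most windows, by as much as 49.2 points at Hoxd1, while the window at the Gm38462 start between Hoxd9 and Hoxd3 stays under 5% in every library. The window of the other Gm38462 start, beside Hoxd3, reaches 25.1% and 18.8% in the cMyc-Bcl2 knockin libraries.

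Methylation was uneven along the interval in each group. Windows of 1 kb with at least 3 positions were compared, 34 of them over all 10 libraries. The median level over these 34 windows was 23.9% and 29.8% in the cMyc-Bcl2 knockin libraries, against 10.6% and 7.25% in the cMyc-Bcl2 WT libraries. It was 18.6%, 16.9% and 12.2% in the MLL-AF9 knockin libraries, against 8.51%, 12.3% and 10.3% in the MLL-AF9 WT libraries. Levels over 20% were reached in 22 and 24 of the 34 windows in the cMyc-Bcl2 knockin libraries, against 8 and 5 windows in the cMyc-Bcl2 WT libraries. The MLL-AF9 knockin libraries passed 20% in 16, 15 and 15 windows, against 11, 9 and 11 windows in the MLL-AF9 WT libraries.

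The knockin was tested over both models together, in a quasi-binomial fit of methylated and unmethylated reads with terms for model and knockin, limma-moderated dispersion and Benjamini-Hochberg adjustment over all 40441 windows of the autosomes. In 4 of the 34 Hoxd windows methylation rose in the knockin by at least 10 points with an adjusted p under 0.05, and in 0 it fell. Over all windows 3.69% rose and 0.0346% fell by the same rule, so that 4 of 34 (11.8%) lies above the background. Differences above 0 were found in 32 of the 34 windows (94.1%, against 67.5% of all windows), with a median of 11.4 points, against a median of 0.713 points over all windows. An unadjusted p under 0.05 with a higher knockin level was reached by 24 windows (70.6%, against 18.4% of all windows), and in 7 windows (20.6%, against 6.19%) knockin and WT libraries did not overlap in either model. A linear fit with limma on logit-transformed levels (M-values) called 0 of the 34 windows. The count of 4 depends on single libraries: it was 0 without replicate 2 of cMyc-Bcl2 WT or replicate 3 of MLL-AF9 WT, 1 without replicate 1 of the cMyc-Bcl2 knockin, 2 without replicate 1 of the MLL-AF9 knockin, and 8 without replicate 2 of MLL-AF9 WT.

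The window with the largest of the 4 changes, chr2:74601000-74601999, has its centre 0.463 kb downstream of the start of Hoxd1, the gene at the 3′ end of the cluster. Over its 34 positions covered in all libraries the level was 59.99% and 71% in the cMyc-Bcl2 knockin libraries, against 18.5% and 16.9% in the cMyc-Bcl2 WT libraries. It was 53.1%, 31.6% and 28.8% in the MLL-AF9 knockin libraries, against 30.1%, 25.6% and 20.04% in the MLL-AF9 WT libraries. The cMyc-Bcl2 groups were far apart, whereas in MLL-AF9 the lowest knockin library lay below the highest WT library. Averaged over the models the difference was 30.2 points (adjusted p = 0.0291 in the quasi-binomial fit with limma-moderated dispersion).

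The window chr2:74584000-74584999 lies between the Hoxd4 and Hoxd1 starts, with its centre 24.5 kb after the first and 16.5 kb before the second. Only starts were placed, so that a window between starts may lie within a gene. The Hoxd4 start, with 4 listed CpGs, was placed only by a looser rule applied within the interval after the data had been seen, and it serves for distances alone. The 29 positions of chr2:74584000-74584999 were methylated at 47.2% and 62.5% in the cMyc-Bcl2 knockin libraries, against 22.1% and 24.6% in the cMyc-Bcl2 WT libraries. In MLL-AF9 they were methylated at 48.1%, 45.5% and 29.1% in the knockin libraries, against 21.4%, 28.6% and 19.5% in the WT libraries. Knockin exceeded WT without overlap in both models, by 24.6 points on average (adjusted p = 0.0270 in the limma-moderated fit).

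In the same stretch, 17.5 kb after the Hoxd4 start, the window chr2:74577000-74577999 held 5 positions. Their level was 39.0% and 43.0% in the cMyc-Bcl2 knockin libraries, against 9.52% and 25.9% in the cMyc-Bcl2 WT libraries, and 17.9%, 31.3% and 13.8% in the MLL-AF9 knockin libraries, against 11.9%, 4.13% and 9.86% in the MLL-AF9 WT libraries. The groups did not overlap in either model, and the difference was 17.8 points (adjusted p = 0.040 in the limma-moderated fit). With 5 positions this window has the fewest of the 4.

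The remaining window, chr2:74525000-74525999, lies 5.12 kb after the Hoxd11 start and 4.45 kb before the Hoxd10 start. Its 15 positions had 20.8% and 32.8% methylation in the cMyc-Bcl2 knockin libraries, against 3.58% and 5.24% in the cMyc-Bcl2 WT libraries. In MLL-AF9 the knockin libraries had 18.5%, 24.9% and 15.9%, against 10%, 14.4% and 5.23% in the WT libraries. Again neither model showed overlap, and the difference was 16.1 points (adjusted p = 0.0264 in the limma-moderated fit). A pair of further windows had an adjusted p under 0.05 but less than 10 points: chr2:74528000-74528999 upstream of Hoxd10 with 7.75 points (adjusted p = 0.00991) and chr2:74550000-74550999 at the Hoxd3 start with 9.28 points (adjusted p = 0.045).

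**Figure D2:**
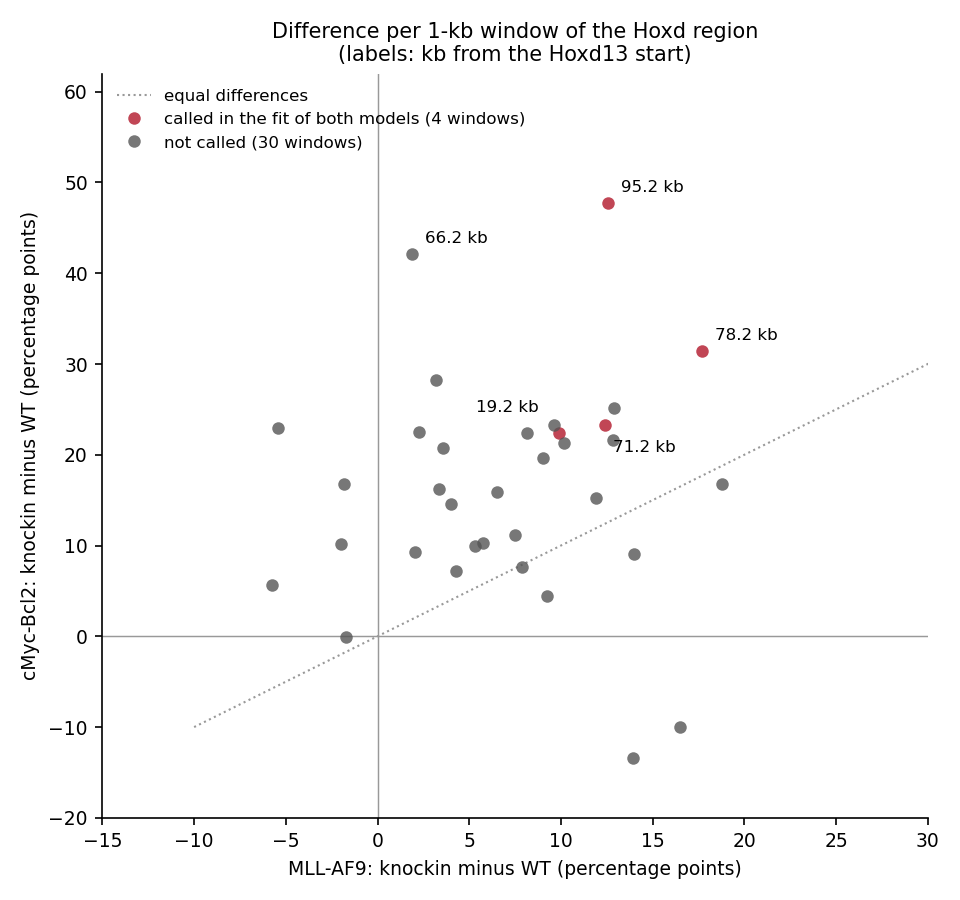
Knockin minus WT difference in percentage points for the 34 windows of 1 kb measured in all 10 libraries, with cMyc-Bcl2 on the vertical axis and MLL-AF9 on the horizontal axis, and the 4 windows called over both models in red. Most points lie above the dotted line of equal differences, and the highest is the Hoxd1 window with 47.8 points in cMyc-Bcl2 and 12.6 points in MLL-AF9.

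By itself, the cMyc-Bcl2 comparison covered 43 Hoxd windows. The quasi-binomial fit called 0 of them, against 0.0014% of 71498 windows, and the M-value fit called 0 as well. An unadjusted p under 0.05 with a higher knockin level was found in 27 windows (62.8%, against 10.3% of all windows). The knockin libraries lay above both WT libraries in 31 windows (72.1%, against 23.5% of all windows) and below both in 0 windows (against 17.2%). The difference was at least 10 points in 30 windows (69.8%, against 15.9%), and its median was 17.4 points, against 0.172 points over all windows. When the 4 groups were fitted together on the positions of all 10 libraries, so that they shared 1 estimate of the spread, 13 of 34 Hoxd windows rose in the cMyc-Bcl2 knockin and 0 fell, against 5.63% and 0.522% of all windows. In MLL-AF9 the same joint fit called 0 of the 34 windows, against 0.0% higher and 0.00247% lower of all windows. There 4 of the 34 had an unadjusted p under 0.05 with a higher knockin level. No share over all windows was taken for that count, and in the fit of MLL-AF9 by itself 14.2% of all windows passed. This joint fit was chosen after the data had been seen. It takes the spread to be equal in both models, whereas the plan had fitted them apart because their spread differs.

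These 13 windows ran from Hoxd12 to Hoxd1, with increases of 10.1 points (chr2:74570000-74570999) to 47.8 points (the Hoxd1 window) in the joint fit. The levels below are over the positions of the cMyc-Bcl2 comparison, not all of which entered that fit. At the posterior side of the cluster the 13 windows included the Hoxd12 window chr2:74513000-74513999. Its 40 positions were methylated at 37.9% and 37.1% in the knockin libraries, against 23.1% and 17.3% in the WT libraries. The Hoxd10 window chr2:74529000-74529999 was among them, with 37.4% and 48.8% in the knockin libraries, against 26.8% and 20.8% in the WT libraries over 39 positions. Downstream of the Hoxd9 start, 87 positions of chr2:74536000-74536999 were methylated at 24.9% and 36.9% in the knockin libraries, against 6.003% and 6.67% in the WT libraries. The Hoxd9 stretch was thus low in both WT libraries and raised in both knockin libraries. At Hoxd3, chr2:74550000-74550999 had 25.1% and 18.8% in the knockin libraries, against 5.16% and 3.02% in the WT libraries over 16 positions.

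By the size of the cMyc-Bcl2 difference alone the Hoxd1 window came first: its 42 positions were methylated at 60% and 70.0% in the knockin libraries, against 15.9% and 15.7% in the WT libraries, a difference of 49.2 points (adjusted p = 0.0862 in the limma-moderated fit of this model by itself). Its depth was 502 to 2305 reads per library. The next, chr2:74572000-74572999, rested on 6 positions and on 1 high library, with 83.7% and 37.8% in the knockin libraries, against 17.7% and 19.5% in the WT libraries. After these came chr2:74600000-74600999 just upstream of Hoxd1 with 29.5 points and chr2:74537000-74537999 downstream of Hoxd9 with 28.2 points. Then came chr2:74588000-74588999 between the Hoxd4 and Hoxd1 starts with 26.0 points. In the last of these the level was 31.6% and 40.4% in the knockin libraries, against 12.4% and 7.57% in the WT libraries.

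In the cMyc-Bcl2 comparison 5 windows were not higher in the knockin. In chr2:74539000-74539999 the difference was -13.4 points, with 26.2% and 19.6% in the knockin libraries, against 50% and 22.6% in the WT libraries, which overlap. The windows chr2:74563000-74563999 and chr2:74566000-74566999, between the Hoxd4 and Hoxd1 starts, were the most methylated of the interval. They had 92.0% and 84.8% in the knockin libraries, against 81.7% and 96.1% in the WT libraries, and 73.5% and 60.7% in the knockin libraries, against 79.7% and 65.6% in the WT libraries. The groups overlapped in both windows.

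The MLL-AF9 comparison covered 35 Hoxd windows, of which the quasi-binomial fit and the M-value fit each called 0. Of all 46593 windows 0.0515% rose and 0.00215% fell. An unadjusted p under 0.05 was found in 9 windows with a higher knockin level and 1 with a lower one, against 14.2% and 0.685% of all windows. The knockin libraries lay above all 3 WT libraries in 11 windows (31.4%, against 18.9% of all windows) and below them in 1 (against 1.43%). The difference was above 0 in 30 windows (85.7%, near the 76.0% of all windows), and its median was 7.88 points, against 1.29 points over all windows.

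The 5 windows with the largest MLL-AF9 differences among those whose groups did not overlap were spread over the interval. The window chr2:74539000-74539999 differed by 13.9 points, but its groups overlapped. In chr2:74578000-74578999, next to 1 of the windows called over both models, the level was 20%, 43.3% and 16.4% in the knockin libraries, against 6.52%, 0% and 13.8% in the WT libraries, a difference of 19.8 points (adjusted p = 0.293 in the limma-moderated fit). In chr2:74538000-74538999, downstream of Hoxd9, it was 48.3%, 29.9% and 49.4% in the knockin libraries, against 25%, 18.1% and 25.6% in the WT libraries. All 3 knockin libraries exceeded the WT libraries in both of these windows. Just upstream of Hoxd1, chr2:74600000-74600999 had 29.5%, 18.3% and 25.2% in the knockin libraries, against 10.9%, 10.7% and 9.77% in the WT libraries (13.9 points, adjusted p = 0.140). The other 2, chr2:74584000-74584999 and chr2:74566000-74566999, differed by 17.3 and 16.5 points without overlap (adjusted p = 0.270 and 0.397).

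The size of a difference moved with the mean level of a window over the libraries compared, and the Hoxd interval holds many windows at middle levels. Windows with a mean of 10 to 30% made up 58.1% of the Hoxd windows in cMyc-Bcl2 and 51.4% in MLL-AF9, against 9.11% and 8.78% of all windows. Within this range the median cMyc-Bcl2 difference was 17.5 points over 25 Hoxd windows, against 11.1 points over all windows of the same range. In MLL-AF9 it was 9.71 points over 18 Hoxd windows, against 7.84 points. In the range of 30 to 60% the medians were 19.6 points over 10 Hoxd windows, against 14.1 points, in cMyc-Bcl2, and 14.9 points over 4 Hoxd windows, against 12.3 points, in MLL-AF9. In the range of 5 to 10% they were 5.08 points over 4 Hoxd windows, against 2.81 points, in cMyc-Bcl2, and 3.13 points over 7 Hoxd windows, against 3.35 points, in MLL-AF9. At 60% and over the median was -3.06 points over 2 Hoxd windows, against 0.307 points, in cMyc-Bcl2. In MLL-AF9 it was 16.5 points at 1 Hoxd window, against 2.49 points. Under 5% the medians were 3.88 points over 2 Hoxd windows, against -0.228 points, in cMyc-Bcl2. They were 1.25 points over 5 Hoxd windows, against 0.321 points, in MLL-AF9. The part of the mean level in the Hoxd differences was not tested beyond these ranges.

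Surroundings of the annotated starts, 1 kb to each side, were compared for the genes whose RefSeq upstream sequence could be placed on the listed positions. Of the 9 Hoxd genes, Hoxd12, Hoxd11, Hoxd10, Hoxd9 and Hoxd3 were placed at a single spot, Hoxd13 and Hoxd1 had several candidate spots and were put at the one that held at least 2 times as many listed CpGs as the next, and Hoxd8 and Hoxd4, whose sequences hold 6 and 4 CpGs, were not tested as starts. For Hoxd11 and Hoxd10 the placed starts lie 14098 and 23666 bases after the Hoxd13 start, against 11333 and 16048 for the first base of these genes in GRCm38, so that they are not the most upstream starts. Hoxd11 has another RefSeq start that was not placed, and the spacing of the other placed Hoxd starts equalled that in GRCm38. In cMyc-Bcl2 the knockin level was above both WT libraries at 5 of the 5 uniquely placed starts (against 20.7% of all 9123 starts) and at 7 of the 7 when Hoxd13 and Hoxd1 were added (against 20.1%). The quasi-binomial fit of this model called 0 of the 5, against 0.274% of all starts. An unadjusted p under 0.05 with a higher knockin level was reached at 5 of the 5 (against 12.1% of all starts), and M-values called 0 of the 5, with 25 higher and 1 lower of all 9123. In MLL-AF9 the knockin libraries lay above all WT libraries at 2 of the 5 starts (against 18.5% of 8337) and 3 of the 7 (against 18.2%). The quasi-binomial fit called 0 of the 5 there, against 0.036%. An unadjusted p under 0.05 with a higher knockin level was reached at 1 of the 5 (against 11.3%), and M-values called 0 of all 8337. The median difference over the 5 starts was 18.3 points in cMyc-Bcl2, where all starts had -0.143, and 8.45 points in MLL-AF9, where all starts had 0.377.

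**Figure D3:**
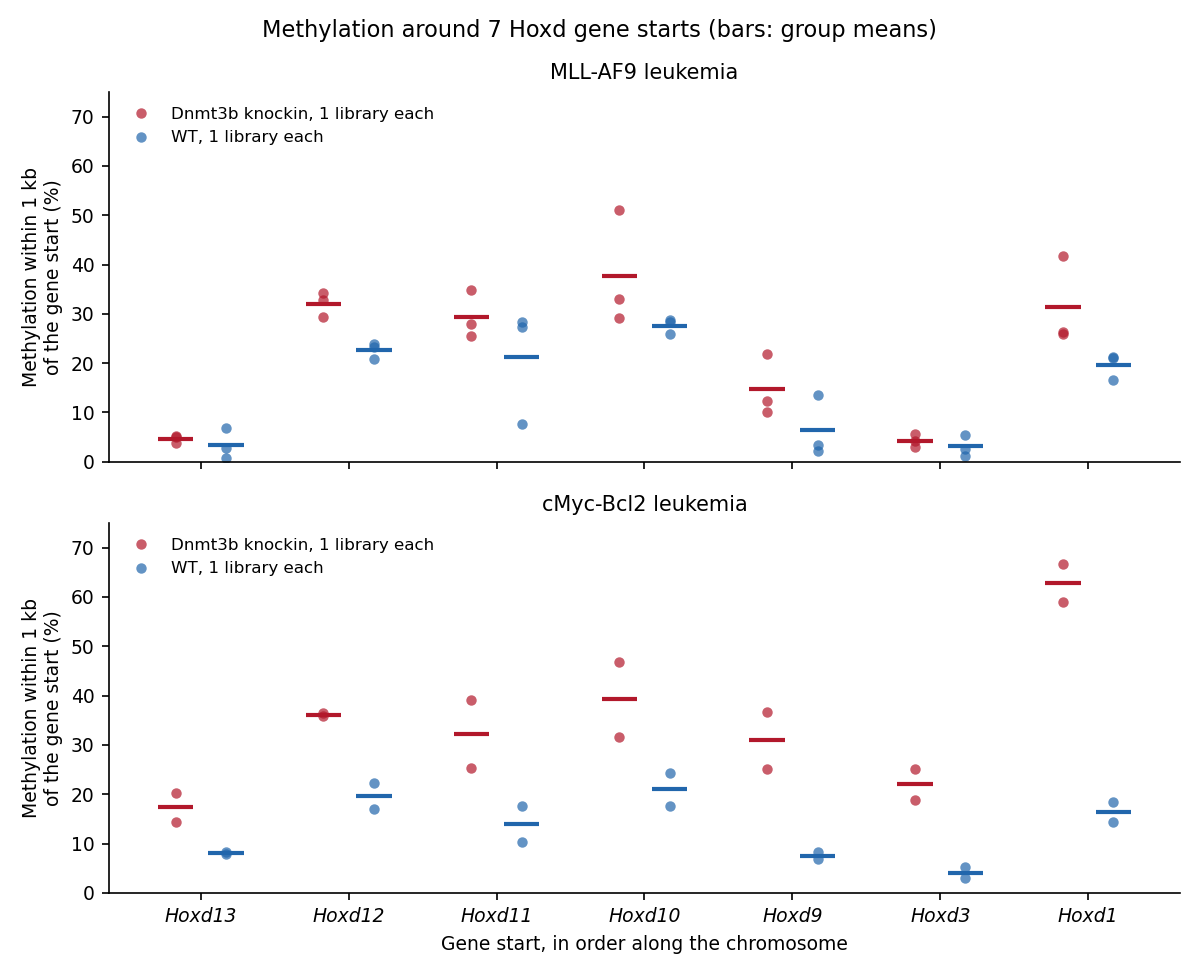
Methylation level in percent within 1 kb of 7 Hoxd starts, with a point for each library and a bar for each group's mean, MLL-AF9 in the upper panel and cMyc-Bcl2 in the lower. At each placed Hoxd gene the cMyc-Bcl2 knockin libraries lie above the cMyc-Bcl2 WT libraries, most of all at Hoxd1, with 59.0% and 66.7% in knockin, against 18.4% and 14.4% in WT.

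Hoxd13 and Hoxd12 are the most posterior genes, which pattern the digits and the end of the trunk. Hoxd13 had the lower levels of the 2: 14.4% and 20.3% in the cMyc-Bcl2 knockin libraries, against 7.96% and 8.33% in the cMyc-Bcl2 WT libraries. In MLL-AF9 it had 5.30%, 3.90% and 4.95% in the knockin libraries, against 6.95%, 2.73% and 0.718% in the WT libraries, and these overlapped. At Hoxd12 the level was 35.8% and 36.5% in the cMyc-Bcl2 knockin libraries, against 22.3% and 17% in the cMyc-Bcl2 WT libraries. It was 29.3%, 34.1% and 32.8% in the MLL-AF9 knockin libraries, against 23.3%, 24.0% and 20.8% in the MLL-AF9 WT libraries, without overlap on the positions of that model. Hoxd12 was the uniquely placed Hoxd start that rose over both models (10.8 points, adjusted p = 0.0284 in the limma-moderated fit), 1 of 5, against 2.92% of all 8193 starts. On the 22 positions of that fit the cMyc-Bcl2 knockin libraries had 33.8% and 31.8%, against 22.2% and 15.2% in the cMyc-Bcl2 WT libraries. The MLL-AF9 knockin libraries had 21.6%, 32.3% and 32.3% there, against 19.4%, 23.6% and 20.6% in the MLL-AF9 WT libraries, and these overlapped. The M-value fit called 0 of the 5. The Hoxd12 call was lost without replicate 1 of the cMyc-Bcl2 knockin, replicate 2 of cMyc-Bcl2 WT, replicate 3 of MLL-AF9 WT or replicate 2 of the MLL-AF9 knockin. On the positions of all 10 libraries, knockin and WT were apart in both models at 2 of the 5 starts, Hoxd10 and Hoxd3 (against 4.88% of all starts).

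Hoxd11 and Hoxd10 act in the forearm, the kidney and the hindlimb nerves. Around Hoxd11 the level was 39.2% and 25.4% in the cMyc-Bcl2 knockin libraries, against 17.5% and 10.3% in the cMyc-Bcl2 WT libraries. The MLL-AF9 knockin libraries had 34.9%, 28.0% and 25.5% there, against 28.4%, 27.4% and 7.76% in the MLL-AF9 WT libraries, with overlap. Around Hoxd10 it was 31.6% and 46.9% in the cMyc-Bcl2 knockin libraries, against 24.3% and 17.7% in the cMyc-Bcl2 WT libraries. In MLL-AF9 the Hoxd10 level was 51.0%, 33.1% and 29.1% in the knockin libraries, against 28.4%, 28.7% and 25.8% in the WT libraries. At Hoxd10 the groups were apart in both models, whereas at Hoxd11 they were apart in cMyc-Bcl2 and overlapped in MLL-AF9. Over both models the differences were 13.8 points at Hoxd11 and 14.1 points at Hoxd10 (adjusted p = 0.191 and 0.128 in the limma-moderated fit).

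Hoxd9 and Hoxd3 stand in the middle and at the anterior side of the cluster, where Hoxd3 patterns the upper neck. At Hoxd9 the cMyc-Bcl2 knockin libraries had 25.2% and 36.8%, against 8.26% and 6.76% in the cMyc-Bcl2 WT libraries. The MLL-AF9 knockin libraries had 21.9%, 12.4% and 10.1%, against 3.39%, 13.5% and 2.17% in the MLL-AF9 WT libraries, where 1 WT library exceeds a pair of knockin libraries. At Hoxd3 the cMyc-Bcl2 knockin libraries had 25.1% and 18.8%, against 5.16% and 3.02% in the cMyc-Bcl2 WT libraries. In MLL-AF9 Hoxd3 was low throughout, with 4.13%, 5.67% and 3.00% in the knockin libraries, against 1.21%, 5.48% and 2.61% in the WT libraries. Over both models Hoxd9 differed by 15.6 points (adjusted p = 0.0781 in the limma-moderated fit) and Hoxd3 by 9.28 points (adjusted p = 0.0374, short of the minimum of 10 points). The Hoxd3 values rest on the same positions as the window chr2:74550000-74550999, so that they are not a further result.

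Near Hoxd4, another anterior gene known from the neck vertebrae, the window chr2:74559000-74559999 held 4 positions in cMyc-Bcl2 and averaged 59.9% in knockin and 40.0% in WT, without overlap.

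Hoxd1, the most anterior gene, is used in sensory neurons. Its surroundings were methylated at 59.0% and 66.7% in the cMyc-Bcl2 knockin libraries, against 18.4% and 14.4% in the cMyc-Bcl2 WT libraries. In MLL-AF9 they had 41.8%, 25.8% and 26.4% in the knockin libraries, against 21.2%, 21% and 16.6% in the WT libraries. On the positions of each model the groups were apart, by 46.5 points in cMyc-Bcl2 and 11.7 points in MLL-AF9. With such starts included, Hoxd1 rose over both models (30.2 points, adjusted p = 0.0300 in the limma-moderated fit), and with Hoxd12 it made 2 of 7 Hoxd starts called, against 2.54% of all 11022 starts. This call rests on the same 34 positions as that of the Hoxd1 window, so that it is not a further result, and on them the MLL-AF9 groups overlapped.

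Within the 300 bases around a start that the upstream sequences cover, CpGs with at least 5 reads in each library of a model, strands joined, were read one by one. In cMyc-Bcl2 the Hoxd1 sequence had 7 such CpGs, with a median level of 51.1% in knockin and 17.5% in WT, and 6 of them were higher in the knockin. The Hoxd12 sequence had 6, with medians of 32.8% in knockin and 14.6% in WT, and 5 were higher. The Hoxd9 sequence had 10, with medians of 23.8% in knockin and 8.19% in WT, and 7 were higher. The Gm38462 sequence printed above had 11, none of which exceeded 6.29% in the knockin mean or 5.66% in the WT mean, and 10 were higher in the knockin. At Hoxd10 the 12 CpGs had medians of 23.8% in knockin and 23.5% in WT, and 5 were higher in the knockin, while the 1 kb to each side of that start held the larger difference given above. In MLL-AF9 the knockin was higher at 15 of 18 CpGs of Hoxd1, 11 of 14 of Hoxd11, 2 of 3 of Hoxd12 and 3 of 5 of Hoxd10. It was higher at 2 of 4 of Hoxd9, 1 of 4 of Hoxd13, 3 of 7 of Hoxd3 and 5 of 12 of the printed Gm38462 sequence. The other Gm38462 start had 7 of 10. No share over all CpGs was taken for these counts in either model.

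Single positions around Hoxd1 show how the difference was spread. Within 1 kb of the start, 51 positions could be compared in cMyc-Bcl2, from 284 bases before the start to 647 bases after it, and 49 of them were higher in the knockin. Of all 1-kb windows 53.0% were higher in that comparison, and no such share was taken over single positions. At 38 of the 51 (74.5%, against 14.5% of all autosomal positions) both knockin libraries exceeded both WT libraries, and at 0 they lay below (against 6.63%). The median difference was 47.5 points, with a range of -5.75 to 82.2. It was 35.9 points over the 9 positions upstream of the start and 47.5 points over the 42 downstream. In MLL-AF9, 68 positions had a median difference of 11.8 points and a range of -23.2 to 37.0. Of these, 51 were above 0, a share near the 76.0% of all 1-kb windows in MLL-AF9. At 17 (25%, against 5.41% of all positions) all knockin libraries were above all WT libraries. Over the whole interval the same held at 425 of 895 positions (47.5%) in cMyc-Bcl2 and at 76 of 594 (12.8%) in MLL-AF9. Neighbouring positions share reads, so that they are not independent.

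**Figure D4:**
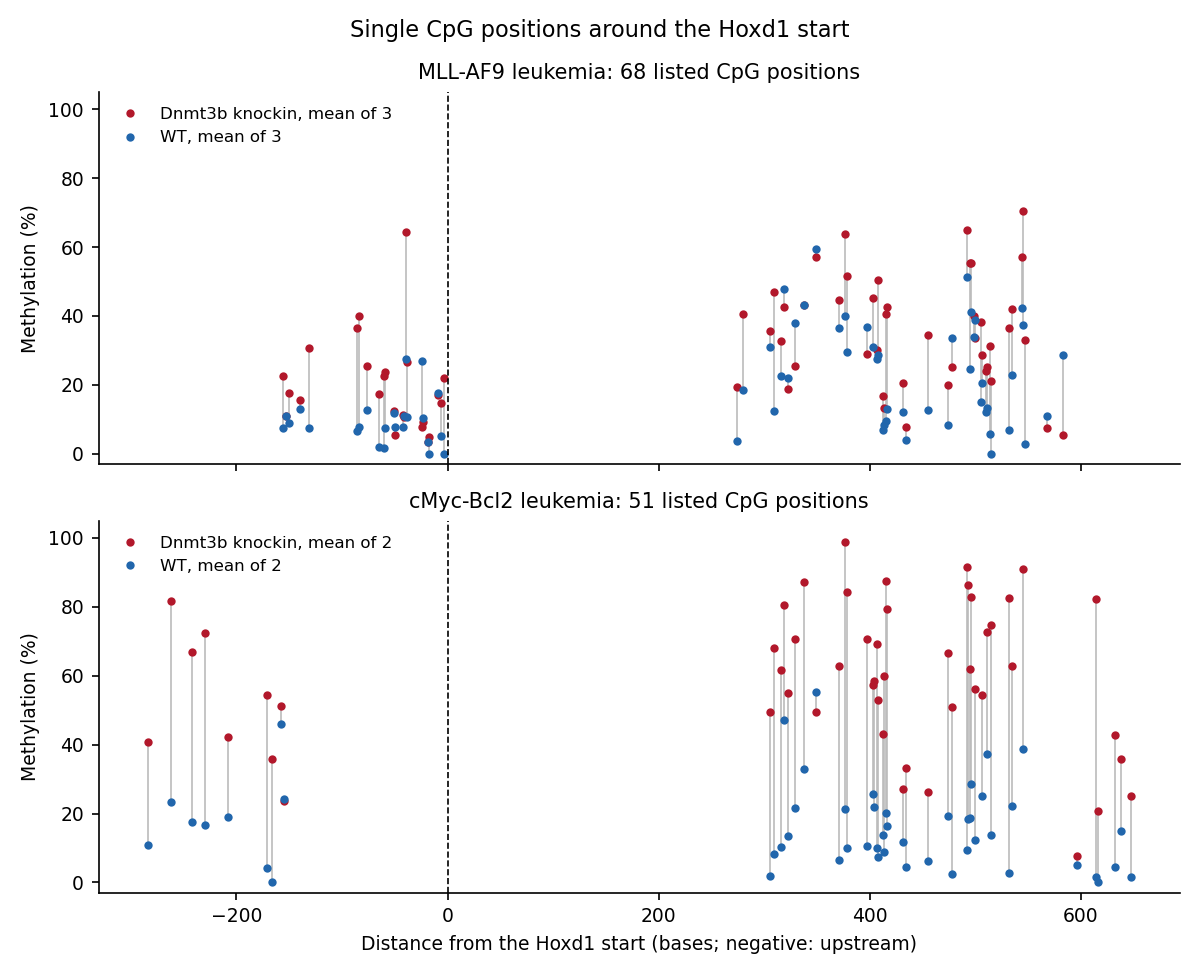
Methylation in percent of single CpG positions within 1 kb of the Hoxd1 start, against distance from the start in bases, as group means of the knockin (red) and WT (blue) libraries joined by a grey line. In cMyc-Bcl2 (lower panel) the knockin is the higher at 49 of 51 positions, on both sides of the start, and in MLL-AF9 (upper panel) at 51 of 68. Of all 1-kb windows 53.0% were higher in the cMyc-Bcl2 knockin and 76.0% in the MLL-AF9 knockin.

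The CpG-dense stretch at the Gm38462 start between Hoxd9 and Hoxd3 was low in every library. Hoxd8 lies in the span of this antisense gene and its start was not placed, so that the stretch may belong to Hoxd8. In the window chr2:74543000-74543999 the level was 2.80% and 2.65% in the cMyc-Bcl2 knockin libraries, against 4.14% and 1.05% in the cMyc-Bcl2 WT libraries over 88 positions (0.133 points, adjusted p = 0.782 in the limma-moderated fit). In the MLL-AF9 knockin libraries it was 1.72%, 1.72% and 1.78%, against 1.87%, 3.75% and 3.02% in the MLL-AF9 WT libraries over 52 positions (-1.14 points, adjusted p = 0.331). The MLL-AF9 knockin libraries were all below the WT libraries there, the only Hoxd window of that comparison where this was so. The window just before it, chr2:74542000-74542999, averaged 28.7% in the cMyc-Bcl2 knockin and 9.14% in the cMyc-Bcl2 WT over 25 positions, so that low and higher stretches were neighbours. The other Gm38462 start shares the window chr2:74550000-74550999 with Hoxd3, where the cMyc-Bcl2 knockin libraries had 25.1% and 18.8%, against 5.16% and 3.02% in the cMyc-Bcl2 WT libraries. Of 23 CpGs in the 300 bases around that start 20 were higher in the cMyc-Bcl2 knockin, with medians of 15.4% in knockin and 2.38% in WT. Around the start whose sequence is printed above 10 of 11 were higher, with medians of 3.50% in knockin and 0% in WT. The 2 starts of Gm38462 thus differed in level, while most CpGs of both were higher in the knockin.

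The knockin difference itself was set against the other model in an interaction fit over the 34 windows common to all libraries. The cMyc-Bcl2 difference exceeded the MLL-AF9 difference by 13 points in the interval mean, against 0.653 points over all autosomal positions. By window the median excess was 10.7 points, against -0.546 over all windows. The quasi-binomial interaction test called 0 of the 34 windows (0.0767% of all windows were called higher and 0.047% lower), with 8 at an unadjusted p under 0.05 on the higher side (23.5%, against 4.47% of all windows), and the M-value fit called 0. The lowest adjusted p was 0.154, at the Hoxd1 window, where the difference was 47.8 points in cMyc-Bcl2 and 12.6 points in MLL-AF9. In 6 windows the 2 differences had opposite signs, among them chr2:74588000-74588999 with 22.9 points in cMyc-Bcl2 and -5.43 points in MLL-AF9. Across the 34 windows the cMyc-Bcl2 and MLL-AF9 differences had a Pearson r of 0.0367 and a Spearman rho of 0.104, which describes windows of the same libraries and is not a test.

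The oncogene models were also set against each other, within WT and within knockin. These comparisons share their libraries with those above. Between WT groups the interval mean was 13.7% ± 2.69 in cMyc-Bcl2 (SD, n = 2) and 16.5% ± 3.59 in MLL-AF9 (SD, n = 3), over 526 positions and with overlap. Of 35 windows 0 were called, against 0.103% higher and 0.0708% lower of all windows. An unadjusted p under 0.05 was found at 0 windows on the higher side and 4 on the lower, against 8.12% and 4.8% of all windows, and M-values called 0. Both cMyc-Bcl2 WT libraries were below all MLL-AF9 WT libraries in 4 windows (11.4%, against 10.4%). The largest WT difference was at chr2:74588000-74588999, with 13.5% and 7.87% in cMyc-Bcl2 WT, against 14.3%, 56.1% and 22.8% in MLL-AF9 WT, where 1 MLL-AF9 library is far above the rest.

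Between knockin groups the interval mean was 32.4% ± 2.82 in cMyc-Bcl2 (SD, n = 2) and 22.3% ± 4.34 in MLL-AF9 (SD, n = 3), over 663 positions and without overlap. The difference of 10.2 points compares with 0.965 points over all autosomal positions. Of 36 windows 0 were called by the quasi-binomial fit (1.84% of all windows were higher and 1.13% lower), 13 had an unadjusted p under 0.05 on the higher side (36.1%, against 10.5%), and M-values called 0. At 18 windows (50% of 36, against 14.6% of all windows) both cMyc-Bcl2 libraries exceeded all MLL-AF9 libraries. The Hoxd1 window had 58.3% and 67.3% in cMyc-Bcl2 knockin, against 48.2%, 28.1% and 28.3% in MLL-AF9 knockin (28.0 points, adjusted p = 0.0525 in the limma-moderated fit). At the Hoxd9 side, chr2:74537000-74537999 had 25.3% and 41.3% in cMyc-Bcl2 knockin, against 12.1%, 8.45% and 10.1% in MLL-AF9 knockin (adjusted p = 0.0596). Of the 5 uniquely placed Hoxd starts 0 were called between knockin groups, against 2.07% higher and 0.2% lower of all starts, with 3 at an unadjusted p under 0.05 on the higher side (against 12.5%) and 0 by M-values, which called 2 higher and 3 lower of all 8491. Both cMyc-Bcl2 knockin libraries exceeded all MLL-AF9 knockin libraries at 3 of them (against 14.8%), Hoxd12, Hoxd9 and Hoxd3. Levels of the 34 windows went together between models, with r of 0.863 for WT means and 0.763 for knockin means, over windows of the same libraries.

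Other genes of the Hox system were read from lists of other Hox genes, their cofactors (the Pbx and Meis families, which bind DNA with Hox proteins), regulators (Polycomb subunits, MLL partners and Cdx factors) and the genes that flank the cluster. Tested in cMyc-Bcl2 were 5 of 13 other Hox genes, 4 of 9 cofactors, 4 of 12 regulators (Bmi1, Ezh2, Suz12 and Men1) and 2 of 4 flanking genes. In either knockin comparison 0 of their uniquely placed starts were called by a rule that called 0.274% of all starts in cMyc-Bcl2 and 0.036% in MLL-AF9. Median differences over the other Hox starts were 5.02 points in cMyc-Bcl2 (5 starts) and -0.0425 in MLL-AF9 (3 starts). At 4 of the 5 other Hox starts in cMyc-Bcl2 both knockin libraries were above both WT libraries, against 20.7% of all starts. With the starts that had several candidate spots added, the median was 4.43 points in cMyc-Bcl2 (7 starts) and 1.05 points in MLL-AF9 (5 starts). At 5 of the 7 in cMyc-Bcl2 the knockin libraries were above WT, against 20.1% of all starts. Among the 7 was Hoxa5 at -20.7 points, with 97.1% and 40.7% in the cMyc-Bcl2 knockin libraries, against 84.4% and 94.9% in the cMyc-Bcl2 WT libraries, which overlap. Cofactor starts had a median of 0.483 points in cMyc-Bcl2 (4 starts) and 0.298 points in MLL-AF9 (3 starts), and the 4 regulators, with Men1 counted once, had -0.234 points in cMyc-Bcl2 and 0.275 points in MLL-AF9. The flanking genes Lnpk and Mtx2 were nearly free of methylation. Lnpk averaged 0.84% in cMyc-Bcl2 knockin and 0.53% in cMyc-Bcl2 WT, and Mtx2 averaged 0.49% in cMyc-Bcl2 knockin and 0.58% in cMyc-Bcl2 WT. Of the 3 other Hox genes tested in MLL-AF9, Hoxa6 differed most, with 80.5% ± 16.6 in knockin and 54.4% ± 17.4 in WT (SD, n = 3 each, adjusted p = 0.465 in the limma-moderated fit).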

How the data were processed

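Reduced representation bisulfite libraries were analysed from methylation calls. For each CpG position the authors deposited a pair of whole-number values, the methylated and unmethylated read counts. The order of the pair was settled from mitochondrial CpGs, which read 0.910 to 3.20% methylated. Per the submitters' processing notes CASAVA, Trim Galore 0.2.2, Bismark 0.7.4, methylKit and mm9 were used (other settings: not given in the sources used here). Positions 1 base apart (18.7 to 25.0% of positions per file) are the strands of 1 CpG, and each listed position was a unit.

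The interval was mm9 chr2:74500000-74606000. A level is 100 times the methylated reads over all reads of the positions with at least 5 reads in every library compared. Windows of 1 kb with 3 or more positions, and start surroundings, were fitted on the autosomes with a quasi-binomial model of the 2 counts, an F-test with dispersion moderated by limma 3.58.1 (R 4.3.3) and Benjamini-Hochberg adjustment, and were called at an adjusted p under 0.05 and 10 points. Each model was fitted by itself, then both with a model term, then with an interaction. On simulated counts unchanged windows passed an unadjusted p of 0.05 somewhat too often, and changed windows were not called with 2 libraries against 2. RefSeq upstream sequences (GRCm38.p6, 300 bases) were placed on mm9 by the spacing of their CpGs, with at least 6 CpGs listed and no listed position off a CpG. Of 32851 sequences 10386 had a single place, 2981 had 1 place with at least 2 times the listed CpGs of the next, 254 kept several places and 19230 had none. Hoxd4 was placed, for distances, by 4 listed CpGs within the interval, a looser rule added after the data were seen.

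The windows described are, first, those called. Up to 5 per comparison were then taken by the largest absolute difference among windows whose groups did not overlap, and not all of these are given. Others were chosen after their values were seen. They include the 13 of the joint fit, those at the Gm38462 start between Hoxd9 and Hoxd3 and at the Hoxd4 start and those not higher. The genes and lists were chosen with earlier results of these data known. Alternatives were other coverage minimums, window sizes, position minimums, joined strands, M-values in limma, leaving out each library and, chosen after seeing the data, a joint fit of 4 groups. Python 3.11.15, numpy 2.4.6, pandas 2.3.3, scipy 1.17.1 and matplotlib 3.10.9 were used.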

Additional observations from a re-analysis of the deposited data

How the results depend on the processing

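No paired analysis was possible because the labels carry no replicate numbers, and those used here only follow the order of the samples. In the interval means, a minimum of 20 reads left 6 positions and gave 13.2 points for MLL-AF9, 30.2 over both models, 34.0 for the interaction and -10.1 between WT groups, and 64 positions and 6.5 points between knockin groups. With the positions of all 10 libraries the cMyc-Bcl2 difference was 19.9 points. Leaving out 1 library at a time gave 16.3 to 19.1 points in cMyc-Bcl2, 4.53 to 8.46 in MLL-AF9, 12 to 14.3 over both models, 11 to 15.8 for the interaction, -4.93 to -0.909 between WT groups and 7.83 to 12.4 between knockin groups.

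The 4 windows called over both models became 0 with M-values and 0 at 20 reads, where 1 window was left, and lay between 3 and 6 under the other settings. Leaving out 1 library gave 0 to 8. There were 0 when replicate 2 of cMyc-Bcl2 WT or replicate 3 of MLL-AF9 WT was dropped. There was 1 when replicate 1 of cMyc-Bcl2 knockin was dropped, 2 when replicate 1 of the MLL-AF9 knockin was dropped, and 8 when replicate 2 of MLL-AF9 WT was dropped. The 13 windows that rose in the cMyc-Bcl2 knockin in the joint fit were 0 in the fit of that model by itself. Between knockin groups joined strands gave 2 calls, and leaving out 1 library gave 0 to 4, with 4 without cMyc-Bcl2 knockin replicate 1 and 1 without its replicate 2. The 1 start called over both models (Hoxd12) became 0 with M-values, 0 within 300 bases and 2 with the added placements. Leaving out 1 library gave 0 to 2 there. The call was lost when replicate 1 of cMyc-Bcl2 knockin, replicate 2 of cMyc-Bcl2 WT, replicate 3 of MLL-AF9 WT or replicate 2 of the MLL-AF9 knockin was dropped, and there were 2 calls when replicate 2 of MLL-AF9 WT was dropped. In cMyc-Bcl2 by itself the starts called were 0 to 1, with 1 without knockin replicate 2. Of 244 alternative values of single windows, 30 lost a call, 7 gained one and 0 changed direction. The call was lost in 5 of 14 at the Hoxd1 window, 9 of 14 at chr2:74584000-74584999, 11 of 13 at chr2:74577000-74577999 and 5 of 14 at chr2:74525000-74525999. Where a value comes from fewer libraries or windows the setting itself reduces what can be called, and the cause was otherwise not tested.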
